A study of Mus musculus with 10 samples.

Results

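The 46 genes described here encode the machinery of DNA replication and the regulators of entry into S phase. They were taken by symbol from the deposited count table, and all 46 were found among its 18407 genes. They fall into 8 role groups, from origin recognition to control of the G1/S transition. The cells were normal mouse cholangiocytes of the NMC line, an established line from the epithelium of bile ducts, grown as 3D double spheroids for 6 days with no further treatment. The laminin-rich group had 5 libraries from a matrix of laminin and collagen I mixed 3:1 by volume, and the collagen group had 5 libraries from collagen I alone at 1 mg/mL. Collagen I was therefore present in both groups, and all 10 libraries came from the same line. The samples are called biological replicates in the series text, but no label says whether they came from separate cultures, and the p-values cover only the spread seen among these libraries.

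A cell copies its genome once per division. In G1, the origin recognition complex, Cdc6 and Cdt1 load the ring-shaped MCM helicase onto DNA, and at S phase Cdc45 and the GINS complex join it to unwind the strands. DNA polymerase alpha with its primase starts each strand, and polymerases delta and epsilon extend it together with the sliding clamp PCNA. E2F transcription factors drive many of these genes at the G1/S transition. Cholangiocytes rarely divide in a resting liver, while a line kept in culture cycles, so the levels of these messages are a common readout of proliferation.

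The promoter windows of some members carry E2F-type letters, known from many genes of this class, and 8 of these sites are shown because they place a motif of the G1/S regulators beside the genes measured here. The letters searched were TTTCCCGC, TTTGGCGC, TTTGCCGC and TTTCGCGC on either strand, in a window of 250 bases before to 50 after the RefSeq gene start (build GRCm38.p6). Capitals mark the matching letters, lower case the 8 bases on each side or up to the window's end, and each site is written 5′ to 3′ on the strand of its gene.
Mcm5, chr8:75109348-75109375, plus strand: ccaagaacTTTCGCGCCAAAacgtccag
Mcm6, chr1:128359796-128359823, minus strand: cgtatgctTTTGGCGCGAAAagtgcgtg
Mcm3, chr1:20820278-20820301, minus strand: cttccgtgGCGGGAAAacttggga
Cdc6, chr11:98908005-98908028, plus strand: ggtggagaGCGGGAAAtcgcctgg
Orc1, chr4:108579419-108579442, plus strand: ggttagtgGCGCGAAAagttttct
Pola1, chrX:93632278-93632301, minus strand: atcacaggGCGCCAAAtgcactcc
Pole2, chr12:69228165-69228188, minus strand: cggcggtgGCGCCAAAtcgcgaac
Uhrf1, chr17:56304120-56304143, plus strand: gagtcgggTTTCGCGCgcccaggc

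In the Mcm5 and Mcm6 sites, 2 of the searched motifs overlapped on opposite strands in a longer run of capitals. A window was available for 37 members, and 16 of these (43.2%) held at least 1 E2F-type motif, against 704 of 27025 genes (2.60%). Besides the 8 genes shown, motifs were found in the windows of Mcm7, Cdt1, E2f2, Gins3, Lig1, Pold1, Pold3 and Rfc3. A CCAAT box was found in 24 of the 37 windows (64.9%), against 41.1% of all genes. The core of the cell cycle homology region that marks many mitotic genes, TTTGAA on either strand, was found in 6 windows (16.2%), against 20.2% of all genes. These matches describe the letters in a fixed window and are not measurements of binding.

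Each library held between 4424725 and 8129979 counts, and the 46 members took 0.975% to 1.08% of them. The lowest count of any member in any library was 93, for Ccne1 in laminin-rich library 1, so no member was limited by counts near 0. All 9 cholangiocyte markers were present, with Krt19 at a mean of 1043 CPM (read counts scaled to a common library size), whereas Krt7 averaged 5.07 CPM and Cftr 1.40 CPM. The summed hepatocyte markers ran from 23.1 to 78.5 CPM in the laminin-rich libraries and from 18.9 to 35.4 CPM in the collagen libraries. Of these markers, Alb averaged 27.1 CPM, Ttr 9.01 CPM and Apoa1 1.77 CPM. Serpina1a averaged 0.223 CPM, Asgr1 0.0881 CPM and Cps1 0.0848 CPM, and Cyp2e1 was at 0. Summed fibroblast and stellate markers ran from 22.3 to 55.4 CPM in the laminin-rich libraries and from 23.6 to 29.4 CPM in the collagen libraries. Of these, Col1a1 averaged 12.8 CPM, Pdgfra 6.65, Dcn 5.79, Pdgfrb 2.03 and Col3a1 1.20 CPM. Acta2 averaged 0.176 CPM, Col1a2 0.120 CPM and Lum 0.0160 CPM. Summed endothelial markers ran from 0.140 to 0.899 CPM in the laminin-rich libraries and from 0 to 0.814 CPM in the collagen libraries, with Cdh5, Kdr and Erg at 0 throughout. Summed leukocyte markers ran from 3.20 to 5.54 CPM in the laminin-rich libraries and from 3.65 to 8.14 CPM in the collagen libraries, mostly from Cd68 at a mean of 5.00 CPM, with Adgre1 at 0. The part of other cells in the results was not tested. The library codes in the labels carry a letter whose meaning is not stated, E (3 libraries) and F (2) within the laminin-rich group, B (3) and D (2) within the collagen group. Each letter occurs in 1 matrix, so letter and matrix cannot be told apart. Between the 2 collagen libraries of letter D, replicates 4 and 5, and the 3 of letter B, 1708 of 10789 genes (15.8%) differed at adjusted p below 0.05 in the edgeR quasi-likelihood test. The letters did not divide the collagen libraries cleanly: library 3, of letter B, was nearer to library 5 (chi-square of 6.43 per gene) than to libraries 1 and 2 (21.4 and 19.3), and libraries 1 and 2 were the closest pair (3.33). Results are therefore given with all libraries and, where the call or direction differs, without those of 1 letter.

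None of the 46 replication and G1/S genes passed the test between the laminin-rich matrix and collagen I, and the estimates were small. With edgeR's quasi-likelihood test and Benjamini-Hochberg adjustment over all 10789 genes tested, 0 of 46 members passed an adjusted p of 0.05, against 16 genes (0.148%) overall. DESeq2 likewise called 0 members, with 0.192 as the lowest adjusted p, against 209 genes (1.94%) overall. At an unadjusted p below 0.05, 3 members (6.52%) were found, Fen1 and E2f2 with higher estimates and Rfc4 with a lower one in the laminin-rich matrix, against 11.7% of all genes. With shares of all genes as low as 0.148% and 1.94%, 0 of 46 says little about the members. Whether 6.52% differs from 11.7% was not tested. In bulk RNA, a difference in the number of cycling cells and a difference in the message per cell cannot be told apart.

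The 46 log2 fold changes ran from -0.34 for Rpa3 to 0.31 for E2f2, with a median of -0.02, against 0.01 for all genes tested. Of these, 21 lay above 0 and 25 below. Standard errors (SE) ran from 0.08 to 0.20. For 44 members (95.7%) the 95% interval of the fold change lay within 1.5-fold in either direction, against 63.0% of all genes, and for all 46 it lay within 2-fold. The 2 exceptions at 1.5-fold were Rpa3, from 0.610-fold to 1.02-fold, and E2f2, from 1.01-fold to 1.53-fold. The intervals are for each gene by itself and cover the spread between these libraries. They pool the collagen libraries of both letters. Without the letter B libraries, the estimates ran from -0.67 for Rpa3 to 0.53 for Pola1. Members were also more abundant than most genes, with a median of 146 CPM against 46.8 CPM, and varied less within groups, with a median SD of 0.15 on the log2 scale against 0.26.

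**Figure D1:**
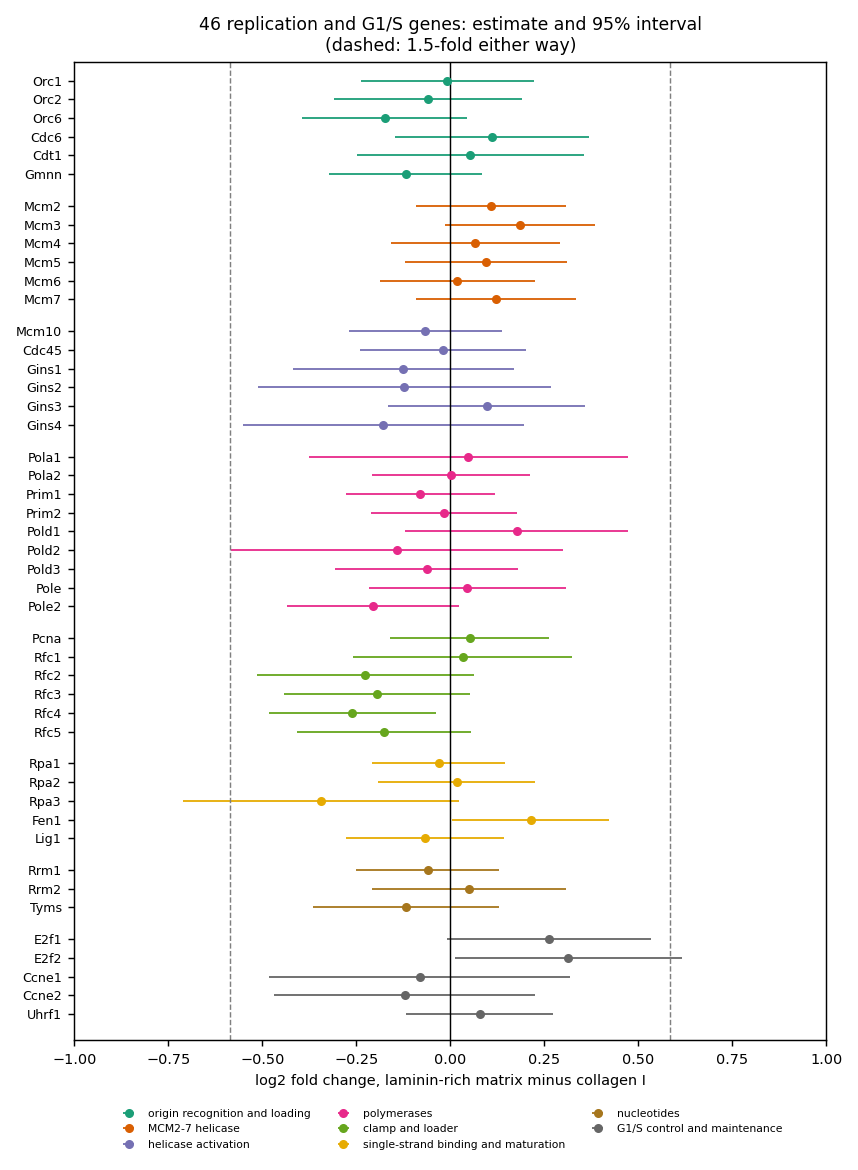
Log2 fold change of each of the 46 genes, laminin-rich matrix minus collagen I, with the 95% interval from edgeR and dashed lines at 1.5-fold in either direction; colours mark the role groups. With all 10 libraries, all 46 edgeR adjusted p-values are 0.345 or higher, and the intervals of Rpa3 and E2f2 are the 2 that cross a dashed line.

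Levels between genes were compared per kilobase of the longest annotated transcript, which is a rough scale because the isoforms in use are not known. On this scale Pcna, the sliding clamp, was the most abundant member at 381 CPM per kb in the laminin-rich matrix and 368 CPM per kb in collagen. The 6 MCM2-7 genes were also high, from 138 (Mcm6) to 256 (Mcm7) CPM per kb in the laminin-rich matrix and from 125 (Mcm3) to 235 (Mcm7) CPM per kb in collagen. Orc1, the large subunit of the origin recognition complex, stood at 13.2 CPM per kb in each group. The lowest were Ccne1, Gins3 and E2f2, at 11.3, 9.84 and 8.75 CPM per kb in the laminin-rich matrix and 11.9, 9.16 and 7.03 CPM per kb in collagen. Pcna was the highest and E2f2 the lowest of the 46 in both matrices.

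**Figure D2:**
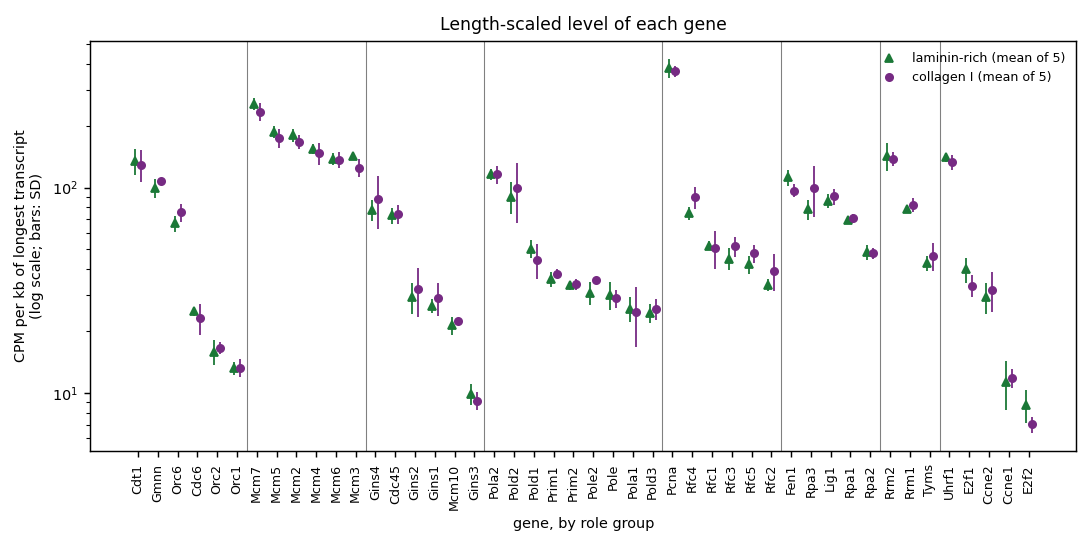
Mean level of each gene in CPM per kb of its longest transcript (log scale, bars are SD, n = 5 each), in laminin-rich libraries (triangles) and collagen libraries (circles), ordered by role group. Pcna lies highest, at 381 CPM per kb in laminin-rich and 368 in collagen libraries, and E2f2 lowest, at 8.75 in laminin-rich and 7.03 in collagen libraries.

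None of the 6 genes that recognise origins and load the helicase passed the test between the matrices, with 2 estimates above 0 and 4 below. Orc1 had 35.6, 43.4, 40.1, 39.0 and 40.8 CPM in laminin-rich libraries 1 to 5, against 44.6, 42.5, 38.9, 34.0 and 39.6 CPM in collagen libraries 1 to 5. The Orc1 ranges overlapped almost fully, and its log2 fold change was -0.01 ± 0.11 (SE, n = 5 per group). Orc6, the smallest subunit of the complex, had the lowest p of the group. Its values were 93.1, 102, 90.8, 93.4 and 112 CPM in the laminin-rich libraries, against 104, 107, 101, 128 and 114 CPM in the collagen libraries. The lower laminin-rich values lay below every collagen value but the upper ones did not, and the log2 fold change was -0.17 ± 0.10 (edgeR adjusted p = 0.534). Orc2 stood at -0.06.

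Cdc6, the loader ATPase, had 113, 120, 116, 124 and 126 CPM in the laminin-rich libraries, against 130, 131, 108, 91.0 and 94.3 CPM in the collagen libraries. The 5 laminin-rich values lay close together inside a collagen range that was split, with libraries 1 and 2 above them and libraries 3 to 5 below, the letter D libraries lowest. Its log2 fold change was 0.11 ± 0.12 (edgeR adjusted p = 0.773). Cdt1, which brings the MCM ring to the origin, had 387, 370, 341, 287 and 425 CPM in the laminin-rich libraries, against 298, 278, 355, 425 and 387 CPM in the collagen libraries. The ranges of Cdt1 nearly coincided, with a log2 fold change of 0.05 ± 0.14. Gmnn, which encodes the Cdt1 inhibitor geminin, was at -0.12.

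All 6 subunits of the MCM2-7 helicase had estimates just above 0, from 0.02 for Mcm6 to 0.19 for Mcm3 with a median of 0.10, and none passed the test; Mcm6 was below 0 with a length and GC correction (-0.02) or with no filter on low counts (-0.00486). Mcm2 had 576, 645, 664, 590 and 670 CPM in the laminin-rich libraries, against 539, 536, 616, 598 and 629 CPM in the collagen libraries. The higher laminin-rich values passed every collagen value while the others lay within the collagen range, and the log2 fold change was 0.11 ± 0.09 (edgeR adjusted p = 0.695). Mcm3, on chr1:20802968-20820312 (GRCm38, minus strand), was the member of this group whose values separated. Its laminin-rich libraries had 477, 492, 479, 494 and 501 CPM, and its collagen libraries had 455, 455, 463, 363 and 411 CPM. Every laminin-rich value lay above every collagen value, by a narrow gap, and the 2 letter D libraries were the lowest. It averaged 488 ± 10.2 CPM in the laminin-rich matrix and 429 ± 42.6 CPM in collagen (SD, n = 5 each), the log2 fold change was 0.19 ± 0.09 and the edgeR adjusted p was 0.459.

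Across the other 4 subunits the ranges overlapped. Mcm4 ran from 513 to 590 CPM in the laminin-rich libraries and from 450 to 607 CPM in the collagen libraries. Mcm5 ran from 583 to 677 CPM and Mcm7 from 710 to 822 CPM in the laminin-rich libraries, against 517 to 657 CPM and 616 to 780 CPM in the collagen libraries. Without the letter D libraries, 4 of the 6 subunits stayed above 0, with Mcm4 at -0.04 and Mcm6 at -0.07. Mcm7 shares exon sequence with Cops6 and Ap4m1 on the opposite strand. Whether counting used strand is not stated in the labels, so reads of such genes may be mixed, and the same holds for Cdc45, Gins2, Orc1, Orc2, Orc6, Pole, Rfc2, Rfc4, Rfc5, Fen1, Lig1 and Ccne2.

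Helicase activation genes lay mostly below 0, 5 of 6, with none past the test. Mcm10, which helps to start unwinding, had 92.7, 102, 106, 119 and 98.2 CPM in the laminin-rich libraries, against 110, 111, 102, 107 and 112 CPM in the collagen libraries. The collagen values lay within the wider laminin-rich range, at a log2 fold change of -0.07 ± 0.09. Cdc45, the helicase cofactor, had 168, 153, 146, 144 and 176 CPM in the laminin-rich libraries, against 147, 141, 157, 179 and 172 CPM in the collagen libraries. These ranges were nearly the same, at -0.02 ± 0.10. In the GINS complex, Gins1, Gins2 and Gins3 were at -0.12, -0.12 and 0.10.

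Gins4, the GINS subunit with the smallest p, had 110, 102, 88.3, 102 and 123 CPM in the laminin-rich libraries, against 85.1, 95.7, 113, 171 and 130 CPM in the collagen libraries. The laminin-rich values lay inside the collagen range, which was wide because libraries 4 and 5 were high. Its log2 fold change was -0.18 ± 0.17 (edgeR adjusted p = 0.742). Without letter D the estimate was 0.10, so its sign rested on those 2 libraries.

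The 9 polymerase genes lay on either side of 0, 4 above and 5 below. Pola1, the catalytic subunit of polymerase alpha, had 115, 155, 158, 135 and 122 CPM in the laminin-rich libraries, against 179, 175, 122, 87.9 and 98.2 CPM in the collagen libraries. The collagen libraries again lay on both sides of the laminin-rich ones, with the letter D pair lowest. The log2 fold change was 0.05 ± 0.20, and it was -0.21 without letter D. Pole, the catalytic subunit of polymerase epsilon, had 184, 210, 241, 254 and 180 CPM in the laminin-rich libraries, against 228, 228, 181, 195 and 205 CPM in the collagen libraries. Here the laminin-rich range enclosed the collagen range, at 0.05 ± 0.12.

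Pole2, the second subunit of polymerase epsilon, had the smallest p of the polymerases. It had 47.7, 60.3, 48.1, 47.2 and 58.8 CPM in the laminin-rich libraries, against 63.8, 58.9, 57.7, 59.2 and 62.1 CPM in the collagen libraries. Libraries 1, 3 and 4 of the laminin-rich group lay below the collagen range and libraries 2 and 5 within it. The log2 fold change was -0.21 ± 0.11 (edgeR adjusted p = 0.468). The remaining polymerase and primase genes were Pola2 at 0.00197, Prim1 at -0.08, Prim2 at -0.02, Pold1 at 0.18, Pold2 at -0.14 and Pold3 at -0.06.

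Of the clamp and its loader, none of the 6 genes passed the test, with the clamp near 0 and the 4 small loader subunits below 0. Pcna had 574, 595, 586, 486 and 654 CPM in the laminin-rich libraries, against 550, 531, 541, 615 and 557 CPM in the collagen libraries. The laminin-rich range enclosed the collagen range, with a log2 fold change of 0.05 ± 0.10 and a 95% interval from 0.894-fold to 1.20-fold. Rfc1, the large loader subunit, had 230, 260, 259, 251 and 239 CPM in the laminin-rich libraries, against 281, 303, 242, 183 and 202 CPM in the collagen libraries. The laminin-rich values sat in the middle of the collagen range, at 0.03 ± 0.14.

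Rfc4, on chr16:23113943-23127737 (GRCm38, minus strand), had the smallest p of all 46 members. It had 95.2, 93.2, 99.3, 86.9 and 104 CPM in the laminin-rich libraries, against 109, 107, 108, 139 and 110 CPM in the collagen libraries. Every laminin-rich value lay below every collagen value, and collagen library 4 stood above the rest of its group. It averaged 95.8 ± 6.56 CPM in the laminin-rich matrix and 115 ± 13.7 CPM in collagen (SD, n = 5 each), the log2 fold change was -0.26 ± 0.10, and the edgeR adjusted p was 0.345. Rfc2, Rfc3 and Rfc5 were at -0.23, -0.20 and -0.18, so the 4 small subunits were all below 0, and they were also below 0 under each of the 22 alternative settings tried, including each scaling. Their sizes did depend on the setting: with the length and GC correction Rfc4 was at -0.09 ± 0.07 (edgeR adjusted p = 0.570) and Rfc2 at -0.35 ± 0.16 (adjusted p = 0.339), and the smallest p among the members was then that of Pcna, at 0.19 ± 0.07 (adjusted p = 0.227). Their median was -0.21 against 0.01 for all genes, and none passed the test with all libraries. Mcm3 and Rfc4 were the 2 of 46 members (4.35%) whose group ranges did not overlap, against 3.23% of all genes.

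**Figure D3:**
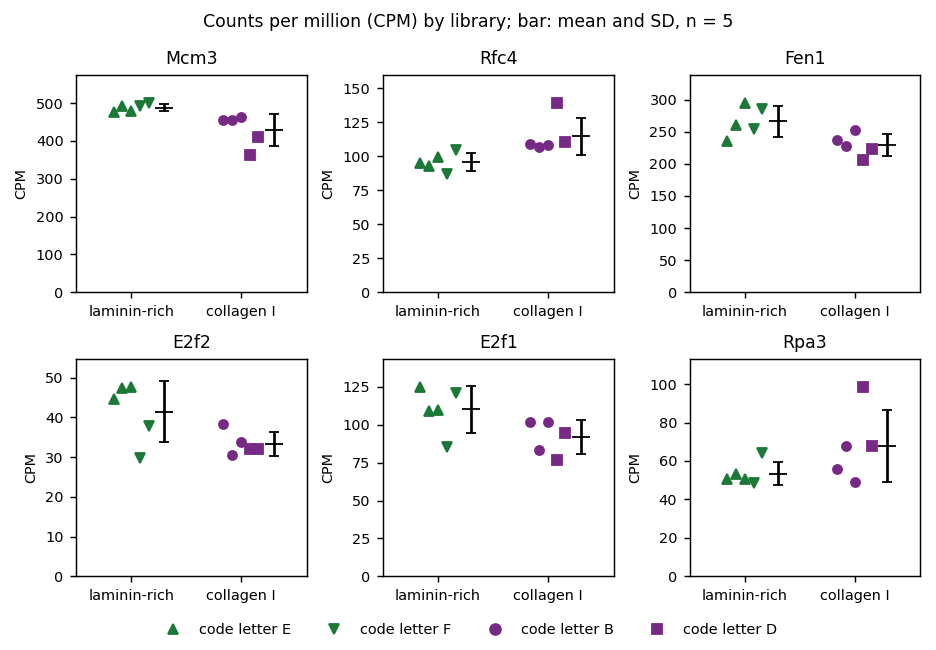
CPM in each library for Mcm3, Rfc4, Fen1, E2f2, E2f1 and Rpa3, laminin-rich group left and collagen group right, with marker shapes for the code letters and bars for mean and SD (n = 5 each). The group ranges of Mcm3 and Rfc4 do not overlap, the letter D collagen libraries are the lowest for Mcm3, and collagen library 4 is the highest for Rfc4 and Rpa3.

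Of the 5 single-strand binding and strand maturation genes, 2 lay above 0 and 3 below, and none passed the test. Rpa1, the large subunit of the single-strand binding protein RPA, had 357, 355, 347, 333 and 370 CPM in the laminin-rich libraries, against 338, 348, 370, 384 and 361 CPM in the collagen libraries. It varied least of all members within groups, with an SD of 0.06 on the log2 scale, and its log2 fold change was -0.03 ± 0.08. Fen1, the flap nuclease that trims Okazaki fragments, had 235, 260, 295, 254 and 286 CPM in the laminin-rich libraries, against 237, 228, 252, 207 and 223 CPM in the collagen libraries. Of the laminin-rich values, 4 lay above the collagen range and library 1 lay within it, at 0.21 ± 0.10 (edgeR adjusted p = 0.418).

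Rpa3, the smallest RPA subunit, had the lowest estimate of all members. It had 50.5, 53.2, 50.5, 48.7 and 64.1 CPM in the laminin-rich libraries, against 56.1, 67.8, 49.1, 98.5 and 67.9 CPM in the collagen libraries. Collagen library 4 was far above every other library and the remaining values overlapped, at -0.34 ± 0.17 (edgeR adjusted p = 0.459). With the length and GC correction Rpa3, whose longest transcript is 682 nt, was at -0.07 ± 0.11, and the lowest estimate was that of Rfc2. Rpa2 was at 0.02, and Lig1, the ligase that joins the fragments, was at -0.07.

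None of the 3 genes of nucleotide supply passed the test. Rrm2, the regulated subunit of ribonucleotide reductase, had 330, 313, 341, 231 and 349 CPM in the laminin-rich libraries, against 328, 307, 269, 317 and 290 CPM in the collagen libraries. Laminin-rich library 4 was the lowest of all 10, and the log2 fold change was 0.05 ± 0.12. Tyms, thymidylate synthase, had 146, 165, 168, 168 and 184 CPM in the laminin-rich libraries, against 169, 155, 166, 224 and 188 CPM in the collagen libraries. The Tyms ranges overlapped, with collagen library 4 the highest, at -0.12 ± 0.11 (edgeR adjusted p = 0.741). Rrm1, the large reductase subunit, was at -0.06.

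Among the G1/S regulators, both activator E2F genes had estimates above 0 and both cyclin E genes below 0, none past the test. E2f1 had 125, 109, 110, 85.6 and 121 CPM in the laminin-rich libraries, against 102, 83.5, 102, 76.7 and 94.7 CPM in the collagen libraries. Laminin-rich library 4 lay within the collagen range and the other 4 lay above it, at 0.26 ± 0.13 (edgeR adjusted p = 0.444). E2f2 had 44.6, 47.4, 47.6, 29.8 and 37.8 CPM in the laminin-rich libraries, against 38.3, 30.5, 33.9, 32.0 and 31.9 CPM in the collagen libraries. The 3 letter E libraries, 1 to 3, were the highest, and libraries 4 and 5 of letter F lay below the highest collagen value. The log2 fold change of E2f2 was 0.31 ± 0.14 (edgeR adjusted p = 0.407), and it was -0.00677 without the letter E libraries.

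Ccne1, which encodes cyclin E1, had 13.0, 27.8, 24.9, 20.5 and 26.3 CPM in the laminin-rich libraries, against 21.6, 23.0, 21.8, 27.7 and 24.7 CPM in the collagen libraries. Laminin-rich library 1 was low and the others spanned about the collagen range, at -0.08 ± 0.19. Ccne2, which encodes cyclin E2, had 78.8, 110, 86.2, 70.9 and 94.0 CPM in the laminin-rich libraries, against 125, 110, 77.7, 81.4 and 84.2 CPM in the collagen libraries. The ranges overlapped, at -0.12 ± 0.16. Uhrf1, which guides DNA methylation to newly copied strands, had 501, 496, 549, 477 and 492 CPM in the laminin-rich libraries, against 513, 456, 509, 423 and 482 CPM in the collagen libraries. Uhrf1 was at 0.08 ± 0.09, with overlapping ranges.

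The members were also viewed together in each library, in the map of log2 CPM by gene and library. Their summed level was 10196, 10601, 10397, 9827 and 10980 CPM in laminin-rich libraries 1 to 5, against 10049, 9943, 10345, 10517 and 10309 CPM in collagen libraries 1 to 5. The laminin-rich range enclosed the collagen range. For single genes, the within-group SD on the log2 scale ran from 0.06 for Rpa1 to 0.36 for Pola1 and 0.37 for Pold2.

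**Figure D4:**
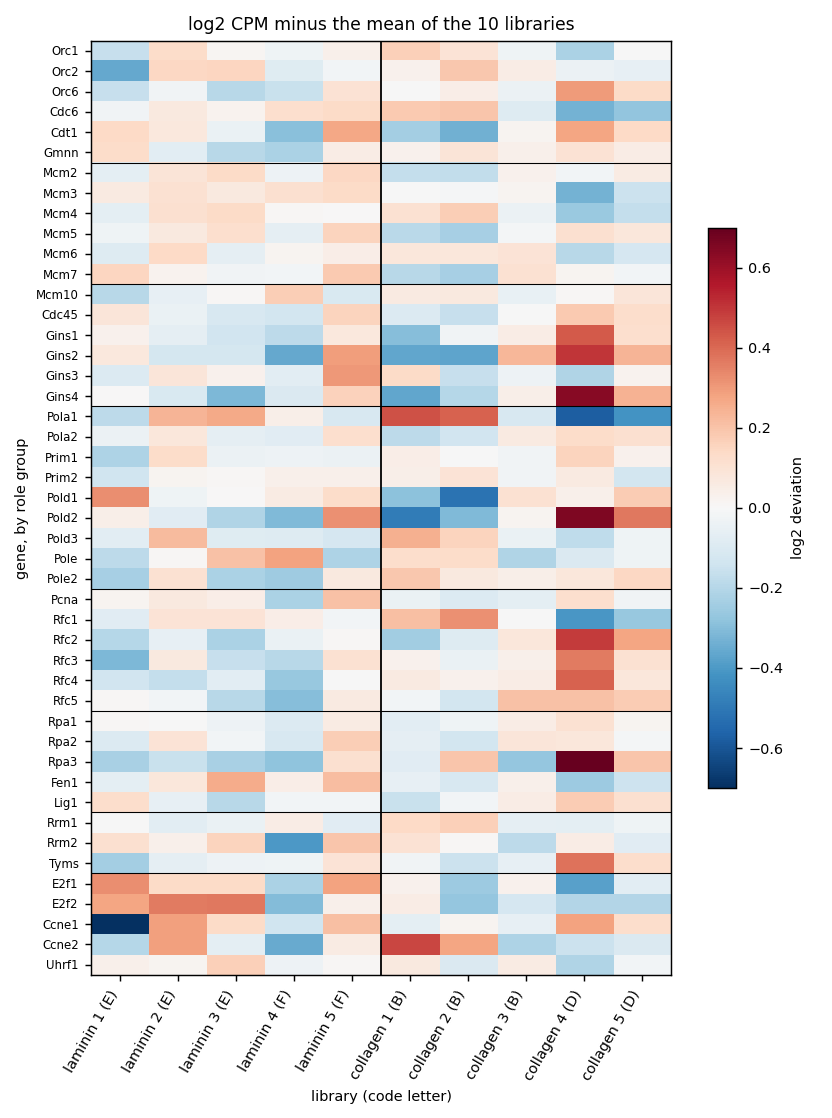
Log2 CPM of each of the 46 genes minus its mean over the 10 libraries, laminin-rich libraries left of the line and collagen libraries right of it, code letter in brackets, genes by role group. Columns hold genes on both sides of 0, and Pola1 and Pold2 shift in opposite directions in collagen libraries 4 and 5.

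Within the collagen group, the 2 letter D libraries differed from the 3 letter B libraries in 5 of 46 members (10.9%), against 15.8% of all genes, in the edgeR quasi-likelihood test with Benjamini-Hochberg adjustment. Pold2, the second subunit of polymerase delta, averaged 218 CPM in D and 128 CPM in B, a log2 difference of 0.76 ± 0.20 (adjusted p = 0.0312). Gins4 averaged 151 CPM in D and 97.9 CPM in B, a log2 difference of 0.62 ± 0.17 (adjusted p = 0.0347). Rfc2 averaged 236 CPM in D and 171 CPM in B, a log2 difference of 0.47 ± 0.14 (adjusted p = 0.0392). These 3 were higher in D.

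Pola1 averaged 93.1 CPM in D and 159 CPM in B, a log2 difference of -0.77 ± 0.19 (adjusted p = 0.0298). Rfc1 averaged 192 CPM in D and 275 CPM in B, a log2 difference of -0.52 ± 0.14 (adjusted p = 0.0334). These 2 were lower in D, so subunits of the same loader, Rfc1 and Rfc2, lay in opposite directions. The contrast rests on 2 libraries against 3. No member was called without laminin-rich library 2 or collagen library 1, 2 or 4, 1 was called without collagen library 5, and 9 were called without collagen library 3.

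Transcript length moved with this contrast. Pold2 and Gins4, higher in D, have longest annotated transcripts of 1646 and 1349 nt. Pola1 and Rfc1, lower in D, have longest annotated transcripts of 5346 and 4751 nt. That of Rfc2, also higher in D, is 4995 nt. The isoforms in use are not known, so these lengths, also used in the correction below, may not be those of the messages counted. Over the 46 members, Spearman's rho between the D minus B difference and length was -0.414, and over 10781 genes it was -0.652, as a description across genes within shared libraries. For the laminin-rich minus collagen difference, rho was 0.306 over the members and 0.394 over all genes. Both contrasts use the same collagen libraries, with letter D entering with opposite signs, so their rho values are not independent. In the matrix comparison, a correction for each library's trend on length and GC content also moved estimates that had not passed the test, to -0.03 for Orc6, -0.08 for Pole2, -0.02 for Gins4, -0.02 for Ccne2 and 0.18 for E2f2. With that correction, 2 of 46 members (Rfc2 and Tyms) differed between D and B, against 456 of 10789 genes. The part of length in the 5 differences was tested only through that correction, under which Pold2 was at 0.24, Gins4 at 0.23, Pola1 at -0.22 and Rfc1 at -0.20 on the log2 scale, none past the threshold. Rfc2 was larger under it, at 0.68 (edgeR adjusted p = 0.0360).

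**Figure D5:**
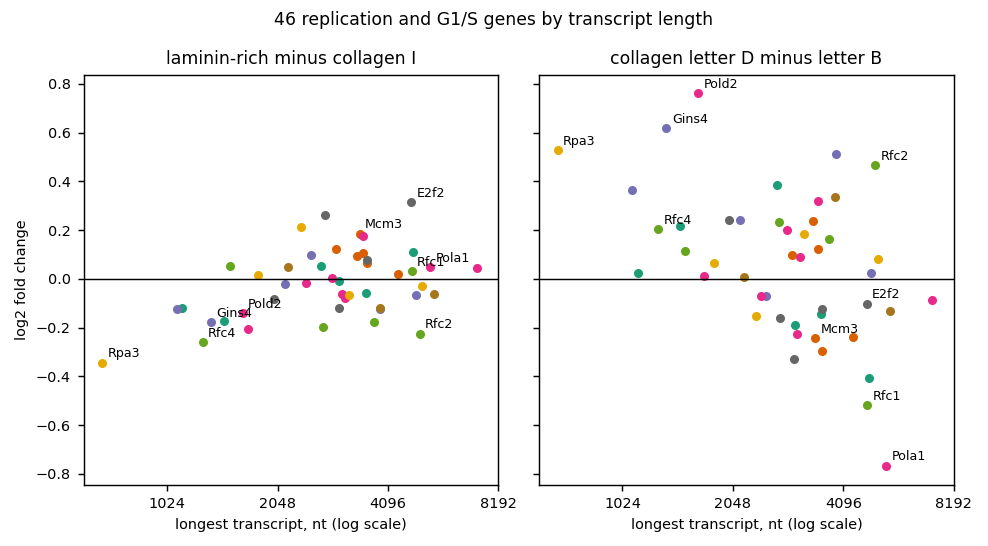
Log2 difference of each of the 46 genes against the length of its longest transcript (nt, log scale), for the laminin-rich minus collagen comparison and for letter D minus letter B within collagen. The D minus B differences run from 0.76 for Pold2 down to -0.77 for Pola1 and lean downward with length (rho -0.414), while the matrix differences stay between -0.34 and 0.31.

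The matrix comparison was also made against the collagen libraries of each letter. Against these 2 collagen libraries alone, without letter B, 7 of 46 members (15.2%) passed the edgeR test, against 2083 of 11018 genes (18.9%). Cdc6 was at 0.34 and Pola1 at 0.53, higher in the laminin-rich matrix, and Gins4 was at -0.55, Pold2 at -0.58, Rfc2 at -0.52, Rfc4 at -0.41 and Rpa3 at -0.67, with adjusted p-values from 0.0220 to 0.0456. Against the 3 letter B libraries alone, 0 members passed, and Pola1 was at -0.21 and Pold2 at 0.21, opposite in sign to the values against D. Rfc4 was below 0 in each comparison. Within the laminin-rich group, letter F against letter E gave 0 members and 0 genes (0%) past the edgeR test, and 0 members and 1 gene by DESeq2. At an unadjusted p below 0.05 in edgeR there were 1 of 46 members and 414 of 10789 genes. That member was E2f2, at -0.47.

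In 7 lists of other pathway genes, 123 genes were tested and 0 passed the edgeR test, and 2 passed DESeq2, Paics and Nusap1. At an unadjusted p below 0.05 there were 14 (11.4%), near the 11.7% of all genes, with 3 higher and 11 lower in the laminin-rich matrix, against 723 higher and 534 lower among all genes. Of the 8 other origin binding and licensing genes, Orc5, a further origin recognition subunit, had the smallest p. It had 35.7, 39.0, 34.4, 41.7 and 36.2 CPM in the laminin-rich libraries, against 42.2, 46.8, 39.9, 55.0 and 46.4 CPM in the collagen libraries, at -0.30 ± 0.11 (edgeR adjusted p = 0.334). Without the letter B libraries Orc5 was at -0.46 and passed the edgeR test, as did 18.9% of all genes. Of 15 origin firing and checkpoint genes, 2 were at an unadjusted p below 0.05, both higher. Recql4, a helicase needed for origin firing, had 50.5, 45.0, 54.4, 55.1 and 42.4 CPM in the laminin-rich libraries, against 41.2, 33.7, 40.1, 35.0 and 40.9 CPM in the collagen libraries. Its ranges did not overlap, at 0.37 ± 0.11 (edgeR adjusted p = 0.237).

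Among 15 further fork and termination genes, Pclaf, which encodes a PCNA-binding factor, had the smallest p. It had 194, 198, 187, 168 and 228 CPM in the laminin-rich libraries, against 247, 253, 211, 254 and 228 CPM in the collagen libraries. The ranges overlapped because laminin-rich library 5 lay among the collagen values, at -0.29 ± 0.10 (edgeR adjusted p = 0.307). Of 10 chromatin assembly genes, the histone chaperone Asf1a was at -0.33 ± 0.11 (edgeR adjusted p = 0.307). Its laminin-rich values of 26.2, 24.3, 24.9, 30.1 and 31.3 CPM all lay below its collagen values of 34.2, 32.8, 32.1, 39.5 and 33.0 CPM. In nucleotide supply, 13 of 15 further genes lay below 0, against 5209 of all 10789 genes. Of these 15 genes, 5 (33.3%) differed between letters D and B in the edgeR test, against 15.8% of all genes. Paics, an enzyme of purine synthesis, had 438, 406, 377, 405 and 389 CPM in the laminin-rich libraries, against 496, 477, 538, 481 and 472 CPM in the collagen libraries. Its ranges did not overlap, at -0.29 ± 0.09 (edgeR adjusted p = 0.225; DESeq2 adjusted p = 0.00420).

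Of 35 other G1/S regulators, 23 lay above 0 and 12 below, against 5580 above and 5209 below among all genes. Fbxo5, which inhibits the anaphase-promoting complex, had the smallest p at -0.27 ± 0.09 (edgeR adjusted p = 0.294). Its laminin-rich values of 93.5, 90.1, 83.5, 88.0 and 94.5 CPM lay below all collagen values of 115, 119, 104, 99.3 and 103 CPM. Cyclin D1 (Ccnd1) was dominated by 1 library, with 182, 24.2, 43.2, 27.3 and 56.9 CPM in the laminin-rich libraries, against 33.9, 93.7, 78.0, 80.8 and 77.6 CPM in the collagen libraries. Its log2 fold change was -0.12 ± 0.49 with all libraries, and -0.95 without laminin-rich library 1. Cdkn1a, which encodes the cell cycle inhibitor p21, had 367, 276, 172, 138 and 319 CPM in the laminin-rich libraries, against 267, 256, 230, 380 and 332 CPM in the collagen libraries, at -0.20 ± 0.24.

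The 25 mitotic genes, listed for comparison, had a median log2 fold change of -0.15, with 4 above 0, 21 below and none past the edgeR test, against 5580 above and 5209 below among all genes. Mki67, the proliferation marker, had 730, 1002, 1031, 989 and 712 CPM in the laminin-rich libraries, against 1011, 1160, 635, 474 and 557 CPM in the collagen libraries. Collagen libraries 3 to 5 were the lowest, and the log2 fold change was 0.22 ± 0.23. Top2a, the topoisomerase that untangles sister chromosomes, had 1383, 1320, 1390, 1325 and 1137 CPM in the laminin-rich libraries, against 1631, 1645, 1218, 875 and 1032 CPM in the collagen libraries, at 0.03 ± 0.17. Without the letter B libraries, Mki67 was at 0.77 and Top2a at 0.43, and both passed the edgeR test, as did 18.9% of all genes. Without the letter D libraries, Mki67 was at -0.07 and Top2a at -0.19. Nusap1, a spindle protein, had 223, 243, 201, 187 and 214 CPM in the laminin-rich libraries, against 304, 317, 244, 257 and 259 CPM in the collagen libraries. Every laminin-rich value of Nusap1 lay below every collagen value, at -0.37 ± 0.11 (edgeR adjusted p = 0.225; DESeq2 adjusted p = 0.0405).

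Members with and without an E2F-type motif in the window overlapped in their estimates. Among the 16 with a motif, 11 lay above 0 with a median log2 fold change of 0.07, running from -0.21 to 0.31. Among the 21 whose window held none, 8 lay above 0 with a median of -0.06, running from -0.34 to 0.26. The 9 without a window were Gmnn, Mcm4, Gins1, Gins2, Gins4, Prim2, Pole, Rfc2 and Ccne2. These counts are descriptive, and no member of either set passed the test between the matrices.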

How the data were processed

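Poly(A) mRNA was sequenced from 30 ng of total RNA per library with a stranded kit, per the labels' protocols. The authors deposited raw read counts per gene symbol, 1 column for each of the 10 libraries, with 0 columns that match no sample. Per the submitters' processing notes, DESeq2 was among the tools and reads were placed on GRCm38 (mm10); aligner, counter, strand setting and annotation: not given in the sources used here. Totals ran from 4424725 to 8129979 counts, and the spread between libraries gives the error of each value.

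The whole table was fitted with edgeR 4.0.16 in R 4.3.3 (filterByExpr, TMM scaling, quasi-likelihood F test, two-sided, matrix as the only term). Adjustment was by Benjamini-Hochberg over 10789 genes, with a threshold of 0.05. CPM uses TMM-scaled library sizes, log2 CPM a prior count of 2. The SE is the log2 fold change divided by the square root of F, and 95% intervals use its t quantile. Contrasts of code letters used a fit with 4 letter groups. Transcript lengths and positions came from GENCODE M21 (GRCm38; 18338 of 18407 symbols found), and promoter windows from RefSeq. The fit was tested on simulated data.

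The members and lists were chosen with earlier results of these data known. Values per library are given for 18 anchor genes, for the member with the smallest p in each role group, for members whose group ranges do not overlap, for the smallest p of each pathway list, and for Mki67, Top2a, Ccnd1 and Cdkn1a. Other genes were named after their values were seen. Correlations of deviations between libraries of the same replicate number ran from -0.327 to 0.483, which cannot settle whether these numbers pair the samples. The main fit used no pairing. The closest pair of libraries within a matrix differed by 3.33 in chi-square per gene. This value cannot show whether the 2 came from separate cultures. All 10 were treated as separate samples. Alternatives were DESeq2 1.42.0, 2 other scalings, 2 other filters, a length and GC offset, a replicate block, and leaving out each library or letter.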

Additional observations from a re-analysis of the deposited data

Results flagged for a closer look

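Among the members, each of 92 sets (a gene in the 5 libraries of a matrix) was searched for a value set off from the rest by most of the set's range, and 4 were found; chance gives about 1 in 20, or 4.60 here. Prim2, a primase subunit, was low in laminin-rich library 1 at 74.5 CPM, with 82.7 CPM as the nearest value of its group. Pold3, a subunit of polymerase delta, was high in laminin-rich library 2 at 89.2 CPM, with 72.5 CPM next. Rfc4 was high in collagen library 4 at 139 CPM, with 110 CPM next. Rrm2 was low in laminin-rich library 4 at 231 CPM, with 313 CPM next. The 4 values came from 4 different libraries.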

How the results depend on the processing

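No member was called in the matrix comparison under any of the 22 settings except without letter B (7 members). Genes called overall numbered 16, and 209 with DESeq2, 29 with no filter, 104 with the length and GC offset, 0 with the replicate block, 5 without letter D, 2083 without B, 1 without E, 5 without F, and 0 to 64 with 1 library left out (0 without laminin-rich library 2 or collagen library 3 or 5). Called pathway genes numbered 2 with DESeq2 and 28 without B. D minus B gave 2 of 46 members and 456 of 10789 genes with the offset, and 0 to 9 members and 0 to 3655 genes with 1 library left out. F minus E gave 1 gene with DESeq2 and 0 to 26 with 1 library left out (26 without laminin-rich library 5). Of 1092 values of named genes, in the matrix comparison and in D minus B, 980 kept direction and call. A call was gained by 12 values, those of Paics and Nusap1 with DESeq2 and the others without B. Another 72 changed sign, and the rest, all in D minus B, lost their call. None of the sign changes was of a called value, and the cause was not tested. In log2 units the sign changes were as follows. With no filter, Mcm6 was at -0.00486. With the offset, Cdc45 was at 0.0542, Orc1 0.0187, Pole -0.166, Rfc1 -0.0152, Top2a -0.00193 and Mcm6 -0.0246. With the replicate block and the offset, they were at 0.0540, 0.0216, -0.159, -0.0116, -0.00054 and -0.0262 in the same order; the samples share only a number, and the block changed no call of a member. Without D, Cdc6 was at -0.0380, Cdc45 0.0799, Pola1 -0.211, Rfc1 -0.153, Rpa1 0.00124, Tyms 0.0232, Ccne1 0.0154, Gins4 0.0994, Pold2 0.210, Mki67 -0.0675, Top2a -0.193, Cdkn1a 0.0195, Mcm4 -0.0445, Mcm6 -0.0732 and Gins2 0.102. Without B, Cdt1 was at -0.194, Orc1 0.0815, Pcna -0.0437, Ccne2 0.0604, Mcm5 -0.0679 and Pold1 -0.0346. Without E, Pola1 was at -0.0641, Rfc1 -0.00414, Rrm2 -0.0822, E2f2 -0.00677 and Top2a -0.0775. Without F, Ccnd1 was at 0.179 and Mcm6 -0.0117. With 1 library left out, Orc1 ran from -0.0599 to 0.0301, Ccne1 from -0.189 to 0.0669, Pola1 from -0.0673 to 0.165, Rfc1 from -0.0536 to 0.104, Ccnd1 from -0.948 to 0.0734, Mcm6 from -0.0325 to 0.0452, Pole from -0.0418 to 0.101, Rrm2 from -0.00649 to 0.122, Top2a from -0.0761 to 0.120, Cdt1 from -0.0418 to 0.134, Cdc45 from -0.0841 to 0.0250, Pold2 from -0.283 to 0.0315 and Gins2 from -0.241 to 0.000421. Member counts ran from 93 to 6417 per library; how depth bears on the intervals was not tested.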

Other observations

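Once each group's mean was removed, the genes outside the lists whose log2 CPM followed the members' mean deviation most closely over the 10 libraries were Tusc1 (Pearson r 0.975), Etv4 (0.961), Car9 (0.951), Pilrb2 (0.945) and Msra (0.940). The members themselves followed that mean unevenly, from r -0.673 for Rrm1 to 0.910 for Pcna, although each is part of it. The genes outside the lists were picked as the highest r among the 10789 genes tested, less members and listed genes. Such a search can give high r by itself. All these r are descriptions over libraries that share depth and scaling, with no test. The members' mean deviation itself was small, from -0.09 in laminin-rich library 4 to 0.09 in laminin-rich library 5 on the log2 scale.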
